A study of Mus musculus with 249 samples.

Results

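The stretch of mouse chromosome 4 from 54 to 57 Mb holds Klf4, and it was described through the 75 windows of 40 kb that cover it, out of 3891 windows listed for chromosome 4 and 68162 in the whole table. The windows were chosen by position (chr4:54000001-57000000, assembly mm9) and not by any measured value. Of the 75, 4 windows received most of the attention: the Klf4 window (chr4:55520001-55560000), which contains the whole gene, the enhancer window next to it at lower coordinates (chr4:55480001-55520000), and an outer window on each side, the lower outer window (chr4:55440001-55480000) and the upper outer window (chr4:55560001-55600000). The lower side was called the enhancer side because Klf4 lies on the minus strand, so that sequence downstream of the gene has lower coordinates. The enhancer window is named by this position only, and no enhancer was located in it here.

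Klf4 encodes a zinc finger transcription factor of the Krüppel-like family. It belongs to the network that keeps mouse embryonic stem cells pluripotent, together with Oct4 (Pou5f1), Sox2, Nanog and Esrrb, and it is 1 of the factors used to reprogram differentiated cells. In embryonic stem cells the gene is driven by a cluster of enhancers downstream of its 3′ end, and DNA looping is thought to bring such enhancers to the promoter across a stretch with few other genes.

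The data were multiplex-GAM libraries. In genome architecture mapping (GAM), thin cryosections of nuclei (nuclear profiles) are cut out by laser microdissection, and the DNA in each tube is amplified and sequenced, so that loci lying close together in the nucleus turn up in the same tube more often than distant ones. All libraries came from 46C, 1 line of mouse embryonic stem cells of strain 129/Ola, which was grown in serum with LIF and moved to serum-free medium before harvest. Tubes were titled as holding 4 profiles, while the series text states a lower average, and every sample is DNA, so that the cell type could not be checked against expressed markers.

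By their titles the libraries fell into 20 groups from 11 experiments. The reagent volume experiment held protocol-a (10 libraries), protocol-b (11) and protocol-c (10), and the proteinase K experiment held 1ul-mdc-pk (5) and 2ul-mdc-pk (6). Libraries frozen after the lysis incubation (frozen-post-incubation, 10) had an unfrozen arm (11), and another experiment set frozen-early (12) against frozen-late (11). The PCR experiment used 25 cycles (3), 23 cycles (5) or 20 cycles (4). Sections stained with cresyl violet (16) had an unstained arm (10), and amplification kits titled large (11) and small (12) were compared. Single unstained arms came from the propidium iodide (20), eosin (18) and SYBR Gold (10) experiments, and the full collection held 54 libraries. The protocol text describes staining for the SYBR Gold libraries titled unstained, and its proteinase K volumes for the titration arms are smaller than those in the titles, so these groups are named by title. Protocol, plate and experiment cannot be told apart across experiments. The labels name no separate cultures, so each p-value measures the spread between libraries.

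Over the whole table a library was positive in 3.401% to 45.2% of the windows, with a median of 17.1%. This share is the coverage, and it was below 5% in 5 libraries and 25% or more in 47. The number of reads behind a positive call is unknown.

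Klf4 (ENSMUSG00000003032.7) lies at chr4:55540013-55545347 on the minus strand and is 5335 bases long, with 4 annotated transcripts, the longest of 5 exons. Its start site is 14.7 kb from the upper edge of its window and its 3′ end is 20.0 kb from the lower edge, so a 40 kb window cannot separate promoter, gene body and the nearest downstream sequence. The 250 bases before the start site are shown because they anchor every distance given here. They were taken from the RefSeq promoter table (GRCm38.p6) and matched mm9 exactly once on chromosome 4, at chr4:55545348-55545597, minus strand. Capitals mark the letters GGGCGG on either strand, overlapping matches included, the GC box that Sp1 and related zinc finger proteins can bind.
Klf4 upstream: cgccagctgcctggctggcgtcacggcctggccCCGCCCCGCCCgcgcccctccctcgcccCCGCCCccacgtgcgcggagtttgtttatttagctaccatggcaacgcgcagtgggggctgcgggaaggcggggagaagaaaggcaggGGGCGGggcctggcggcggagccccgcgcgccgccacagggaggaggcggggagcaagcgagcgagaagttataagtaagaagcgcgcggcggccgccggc
The 300-base promoter of the table, 50 bases after the start included, has a GC content of 74.3% and 40 CpG dinucleotides, and 95.6% of 32851 promoters have a lower GC content. GGGCGG occurs 4 times in it on both strands together, and 35.7% of the promoters hold these letters at least once. CACCC, the core that Klf4 protein itself recognises, was found 0 times, while 57.5% of promoters hold it.

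CTCF is a zinc finger protein found at many domain boundaries, and its binding motif contains a conserved core. The core searched was CCA, any 2 bases, AG, any 2 bases and GGC (12 letters, both strands). It occurred 139 times in 56 of the 75 windows, and at least once in 78.1% of the 3779 chromosome 4 windows with complete sequence, at a median of 2 per window. The lower outer window had 5 matches, the enhancer window 2, the Klf4 window 0 and the upper outer window 1. All 8 are shown because they lie in the 4 windows whose linkage is described below, with 9 bases on each side and the core in capitals.
chr4:55442834-55442863, minus strand: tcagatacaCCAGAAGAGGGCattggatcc
chr4:55445965-55445994, plus strand: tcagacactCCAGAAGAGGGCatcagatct
chr4:55446931-55446960, minus strand: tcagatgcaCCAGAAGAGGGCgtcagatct
chr4:55469166-55469195, minus strand: tcagacacaCCAGAAGGGGGCattgaatcc
chr4:55472790-55472819, minus strand: gaaagggtcCCAAAAGCAGGCaacagagtc
chr4:55504886-55504915, minus strand: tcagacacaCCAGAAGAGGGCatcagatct
chr4:55509186-55509215, plus strand: atagtttatCCACAAGTGGGCtgttcctgt
chr4:55563013-55563042, minus strand: ggttgctctCCACAAGCTGGCactaaagcc
Of these, 5 start with tcaga and share the core start CCAGAAG, as do 26 of the 139 matches in the region, and the other 3 have sequences of their own. A match is a string of letters and does not show that CTCF was bound in these cells.

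The region was poor in genes. It overlaps 10 protein-coding genes of the mm9 annotation, against a median of 19.5 in 50 tiles of 3 Mb on chromosome 4, of which 11 had fewer genes. From low to high coordinates these are Zfp462 (a zinc finger protein), Rad23b (a partner of the DNA repair factor Xpc), Klf4, Actl7b and Actl7a (actin-like proteins of the testis), Ikbkap (the scaffold of the Elongator complex), BC026590, Ctnnal1 (a protein related to alpha-catenin), D730040F13Rik and 6430704M03Rik. No protein-coding gene lies in the 0.920 Mb before the windows of Zfp462, nor in the 1.12 Mb between the upper outer window and the window of Actl7b, called the gene desert below. The mean GC content of the windows was 42.4%, and that of chromosome 4 was 42.3%.

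Detection of the Klf4 windows was close to that of chromosome 4. The lower outer, enhancer, Klf4 and upper outer windows were positive in 52, 56, 55 and 52 libraries, and the median was 50 both in the region and on chromosome 4. All 75 windows passed the minimum of 25 positive libraries used for linkage, with counts from 37 to 66. The 2 windows detected most often both lie in Zfp462 (66 libraries at chr4:55040001-55080000 and 63 at chr4:55000001-55040000). The 2 detected least often (37 libraries each, chr4:54440001-54480000 and chr4:54680001-54720000) lie in the gene-free stretch before it. The windows of Zfp462 had a median of 58.0 libraries and those of the gene desert a median of 45.5, with ranges of 54 to 66 and 38 to 54 that touch at a single value. Over the 75 windows, detection and GC content had a Pearson correlation of 0.265, a description only, since neighbouring windows share libraries.

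**Figure D1:**
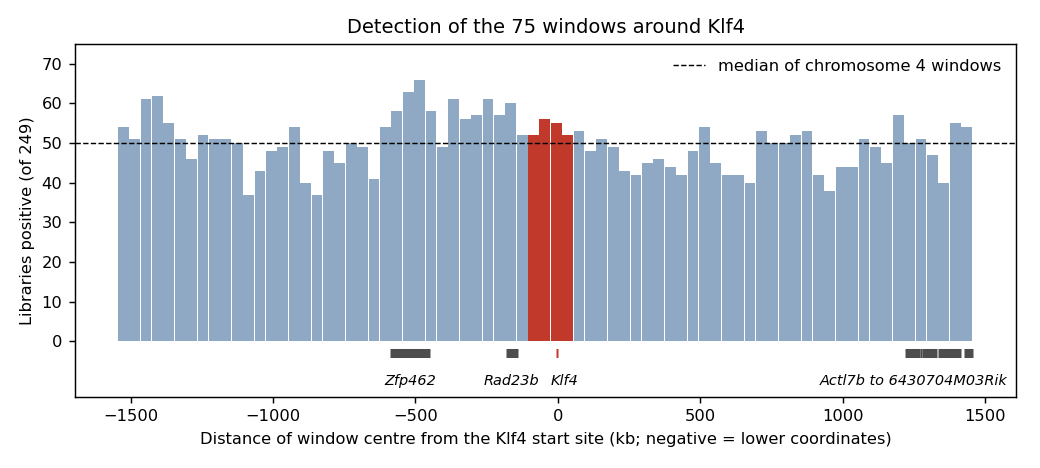
Number of libraries in which each of the 75 windows was positive, against the distance of the window centre from the Klf4 start site in kb. Red bars are the 4 Klf4 windows, the dashed line is the chromosome 4 median of 50, and the boxes under the bars are protein-coding genes. Counts run from 37 to 66, with the highest in Zfp462.

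Within a library, the region was positive in 20.1% of its windows on average and the rest of chromosome 4 in 19.7%. The difference was 0.425 percentage points ± 1.26 (SE over all libraries), with a two-sided permutation p = 0.737 and an adjusted p of 0.737 over the 4 tests of single values made here (Benjamini-Hochberg). The spread between libraries was wide. No window was positive in 75 libraries, the median library held 6.67% of the windows, 39 libraries held over 50% of them, and the highest value was 97.3%. The region exceeded the rest of the chromosome in 91 libraries. On the logit scale, the difference was −0.761 with a permutation p = 1e-05, the smallest that the resamples can give. The direction of the mean thus depends on the scale. A share of 0% has no finite logit, and 75 libraries held no window of the region. No other stretch of like length was set beside it on this scale, so the p does not single out the region.

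The Klf4 window was not detected evenly across experiments. It was positive in 10 of 23 libraries of the early freezing experiment (43.5%), 10 of 26 of the cresyl violet experiment (38.5%) and 7 of 21 of the experiment on freezing after incubation (33.3%). Counts were 13 of 54 in the full collection, 7 of 31 for reagent volume, 2 of 12 for PCR cycles, 3 of 23 for kits, 2 of 20 for propidium iodide and 1 of 11 for proteinase K. It was positive in 0 of 18 libraries of the eosin experiment, which allows a share of up to 16.7%, and in 0 of 10 of the SYBR Gold experiment, which allows up to 30.0% (counting error only). The chi-square over the 11 experiments was 23.9 (permutation p = 0.00764, adjusted p = 0.0306 over the 4 tests). The call did not hold under every setting chosen after the data were seen. With labels permuted only among libraries of like coverage, the permutation p was 0.0191 and its adjusted value 0.0766. Leaving out 1 experiment gave permutation p-values from 0.00360 to 0.0409, and the adjusted value was above 0.05 without the eosin (adjusted p = 0.164), early freezing (0.116), SYBR Gold (0.0600) or cresyl violet (0.0555) experiment.

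The enhancer window had a chi-square of 23.8 (permutation p = 0.00755). Both values lie above 98.8% of those of 3690 chromosome 4 windows, whose median was 9.82, while the lower outer window had 17.01 and the upper outer window 14.8. The Klf4 and enhancer windows differed most in the proteinase K experiment, with 1 and 4 of 11 libraries. The region as a whole, taken as the difference from the rest of the chromosome, gave F = 0.8999 over the experiments (permutation p = 0.535, adjusted p = 0.713 over the 4 tests). This difference removes the coverage of a library, while the chi-square of a window keeps it, so the 2 results are not alike. The plain region percent averaged 9.47% in the SYBR Gold experiment and 29.1% in the early freezing experiment, and was not tested across experiments. Mean coverage and Klf4 detection ran in the same order for some experiments and not for others. Coverage was 22.6% ± 9.56 (SD, n = 23) in the early freezing experiment and 16.1% ± 6.09 (SD, n = 10) in the SYBR Gold experiment. It was 22.1% ± 8.48 (SD, n = 20) in the propidium iodide experiment, where 2 of 20 libraries held Klf4, and 15.8% ± 6.88 (SD, n = 54) in the full collection, where 13 of 54 did. The eosin experiment, at 16.7% ± 6.43 (SD, n = 18), was close to the freezing-after-incubation experiment at 16.8% ± 7.48 (SD, n = 21).

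**Figure D2:**
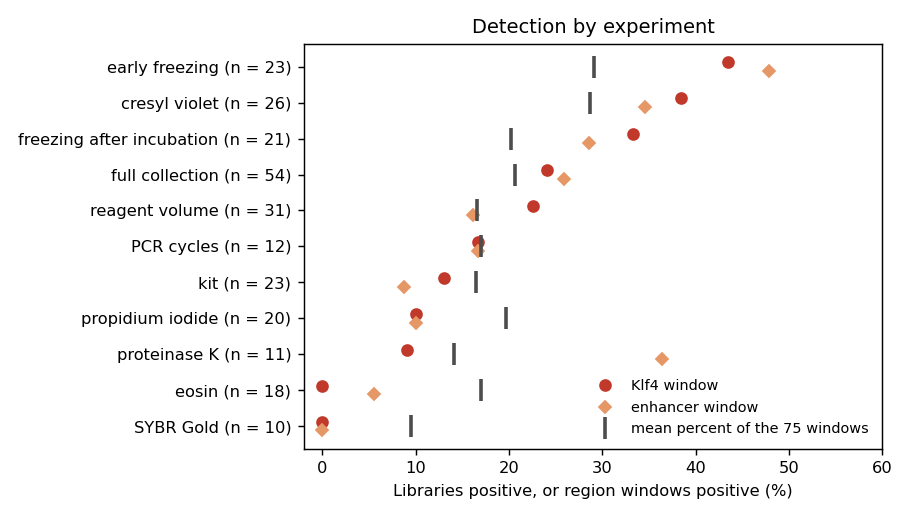
Percent of libraries of each experiment in which the Klf4 window (red circles) or the enhancer window (orange diamonds) was positive, with the mean percent of the 75 windows positive per library (grey bars). Klf4 runs from 0% in the eosin and SYBR Gold experiments to 43.5% in the early freezing experiment, while the region mean varies from 9.47% to 29.1%.

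Arms of the same experiment were compared in 4 experiments, on freezing after incubation, early freezing, cresyl violet and kits. No window of the region passed the adjusted threshold of 0.05 (Fisher's exact test per window, Benjamini-Hochberg over all windows tested). None did anywhere in the genome, so the background is 0% for each of the 4 comparisons. The arms of the reagent volume, proteinase K and PCR cycles experiments were not compared. At an unadjusted p under 0.05, 13 of 75 windows differed between frozen-early and frozen-late, against 4.69% of 58871 windows. All 13 were positive more often in frozen-early. That was the common direction, since 26.8% of all windows tested, and 4 of the 75, were positive less often in frozen-early. The enhancer window was positive in 9 of 12 frozen-early libraries and in 2 of the 11 that were frozen-late (Fisher's exact p = 0.0123, adjusted p = 0.804), and the Klf4 window in 7 of 12 and 3 of 11 (Fisher's exact p = 0.214, adjusted p = 0.935). The lowest p in the region belonged to a Zfp462 window (chr4:55000001-55040000), with 8 of 12 frozen-early and 0 of 11 frozen-late (Fisher's exact p = 0.00135, adjusted p = 0.804). Coverage moved with this contrast, at 28.01% ± 8.23 (SD, n = 12) and 16.8% ± 7.34 (SD, n = 11). With libraries stratified by coverage (Cochran-Mantel-Haenszel test), 0 of the 75 windows had a p under 0.05, against a background of 0.36%, at which a count of 0 says nothing about the region.

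In the other comparisons of arms, few windows of the region had a p under 0.05. Frozen-post-incubation and unfrozen libraries differed at an unadjusted p under 0.05 in 1 of 66 windows (background 1.69%), and the Klf4 window was positive in 2 of 10 and 5 of 11 of them. For sections stained with cresyl violet against unstained ones, the count was 0 of 74 (background 2.61%) with the Klf4 window positive in 7 of 16 and 3 of 10. For the large against the small kit, it was 0 of 57 (background 3.25%), with 2 of 11 and 1 of 12. The stratified test gave 1, 0 and 1 windows with a p under 0.05 in these 3 comparisons (backgrounds 0.562%, 0.999% and 0.661%) and 0 with an adjusted p under 0.05.

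The 4 windows appeared together in varying patterns of positive calls. None was positive in 162 libraries and at least 1 in 87, and 24 libraries, from 6 experiments, held all 4. These were 27.6% of the 87, against a median of 22.4% over the 3603 runs of 4 windows on chromosome 4 (82.3% of the runs had a lower share). The next most frequent patterns were the upper outer window alone (11 libraries), the 3 lower windows without it (9 libraries), and the enhancer and Klf4 windows as a pair (8 libraries). Among the 55 libraries with the Klf4 window, 44 also held the enhancer window, 37 the lower outer window and 33 the upper outer window. The enhancer window without the upper outer window was seen 17 times and the reverse 6 times, with both in 27 libraries and neither in 5. Patterns that broke just above Klf4 were therefore more frequent than those that broke just below it. These counts and the runs described next have no chromosome 4 background. They rest on the same 55 libraries as the linkage of Klf4 with its neighbours and are not separate evidence.

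The unbroken run of positive windows around Klf4 had a median length of 6 windows (240.0 kb) and ranged from 1 window, in 5 libraries, to 63 windows (2520.0 kb). Runs of at least 10 windows were seen in 17 libraries. The run reached further towards the enhancer side in 30 libraries, further towards the gene desert in 16 and equally far in 9. Its median reach was 2 windows below and 1 window above.

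Linkage was measured as D′, the co-segregation of 2 windows minus the product of their detection frequencies, divided by the largest size this difference can take. A value of 1 means that the rarer window was never seen without the other, and 0 means no association. To remove the decay with distance, each D′ was also given as a z-score, its difference from the mean of chromosome 4 pairs at equal distance in units of their SD. Standard errors, and intervals that span 95%, come from drawing the libraries with replacement 1000 times.

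The Klf4 window was linked more closely with its enhancer window than with its upper neighbour. D′ between Klf4 and the enhancer window was 0.742 ± 0.0555 (SE), with an interval from 0.659 to 0.878, against a mean of 0.624 at 40 kb on chromosome 4. The z-score was 1.49, above 93.7% of pairs. D′ between Klf4 and the upper outer window, at the same distance, was 0.531 ± 0.0750 (SE), with a z-score of −1.18, above 11.2% of pairs. The next window up (chr4:55600001-55640000) had a D′ of 0.419 with Klf4 and a z-score of −1.58, above 5.71% of pairs, and the window beyond it rose to 0.652, with a z-score of 1.49. The low values on the upper side were thus held by 2 windows.

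By their point values, the 3 lower windows were linked with each other above the mean of their distance. Their links to the upper outer window were below it. The z-scores that follow have standard errors from 0.815 to 0.863 and lie within or near 1 SE of the mean, so they do not resolve this split. The lower outer window had a D′ of 0.677 ± 0.0669 (SE; z-score 0.672) with the enhancer window and 0.630 ± 0.0703 (SE; z-score 0.866) with Klf4. The upper outer window had 0.504 ± 0.0744 (SE; z-score −0.593) with the enhancer window and 0.490 ± 0.0750 (SE; z-score −0.330) with the lower outer window. The mean over the 6 pairs was 0.596 ± 0.0457 (SE), near the mean of 0.584 for runs of 4 windows and above 57.4% of them. The 4 windows as a set were not more closely linked than others, and the highest and the lowest of the 6 z-scores were those of Klf4 with its neighbours below and above it.

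**Figure D3:**
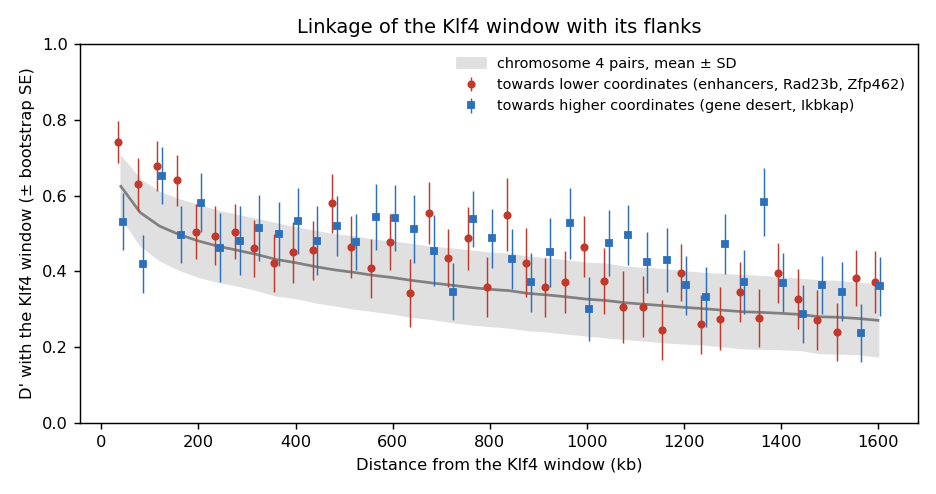
D′ of the Klf4 window with windows at lower (red circles) and higher (blue squares) coordinates, against distance in kb, with standard errors. The grey line and band are the mean and SD of chromosome 4 pairs at equal distance. At 40 kb the lower side stands at 0.742 and the higher side at 0.531.

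How far the difference between the sides reached was asked by averaging over more windows. Over 10 windows (400 kb) per side, D′ averaged 0.553 on the lower side and 0.517 on the higher side. The difference of 0.0359 ± 0.0520 (SE) had an interval from −0.0554 to 0.150, and flipping the sign of each library's contribution (two-sided permutation test) gave p = 0.0892 (adjusted p = 0.178 over the 4 tests). That test was made on the co-segregation covariances, which are not scaled for detection. Over 5 windows the difference was 0.103 (interval 0.0103 to 0.221, permutation p = 0.0300), and over 20 windows it was 0.00109 (interval −0.0932 to 0.103, permutation p = 0.331). For the adjacent windows alone it was 0.211 ± 0.0879 (SE; interval 0.0625 to 0.400, permutation p = 0.00793), and for 2 windows 0.211 (interval 0.0767 to 0.370, permutation p = 0.00303). The last 2 reaches were chosen after the data were seen, and the p-values of the 4 reaches other than 400 kb are not adjusted. Ranked with its sign, lower minus higher, the adjacent difference was above that of 98.7% of 3630 chromosome 4 windows. A large difference in the other direction counts as lower in this rank, and no rank by size was made. Both the high values just below Klf4 and the low values of the 2 windows above it entered these differences. Starting 2 windows away from Klf4 the difference was 0.0122 (permutation p = 0.154) and within tertiles of coverage it was 0.0209 (permutation p = 0.150). At 200 kb the higher side had the larger D′, 0.581 against 0.505. The same held at 320 kb (0.515 against 0.460), 360 kb (0.498 against 0.422) and 400 kb (0.533 against 0.450).

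Over the region as a whole, 58 of the 74 other windows were linked with Klf4 above the chromosome 4 mean of their distance. From 440 to 1000 kb the mean excess of D′ was 0.0824 ± 0.0520 (SE) on the lower side, with 14 of 15 windows above the mean, and 0.0991 ± 0.0574 (SE) on the higher side, with 13 of 15. From 1040 to 1440 kb it was 0.0163 ± 0.0572 (SE) on the lower side, with 5 of 11 windows above, and 0.116 ± 0.0516 (SE) on the higher side, with 11 of 11. Extended to 2000 kb, past the end of the region, the excess was 0.0177 ± 0.0499 (SE) on the lower side, with 13 of 25 windows above, and 0.0530 ± 0.0461 (SE) on the higher side, with 19 of 25. From 1040 to 1440 kb the higher windows hold the end of the gene desert and the Ikbkap cluster, and the lower windows are free of protein-coding genes. Neighbouring windows share libraries, so these counts are not independent.

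Among gene starts, D′ with the Klf4 window was highest for Rad23b, the nearest gene at 160 kb by windows, and the z-score was highest for Ikbkap and BC026590. D′ with the start window of Rad23b was 0.641 ± 0.0673 (SE; z-score 1.55, above 94.1% of pairs), from 40 libraries in which both were positive. D′ with the window of Ikbkap and BC026590, which start within the same window 1280 kb away, was 0.471 ± 0.0796 (SE), with a z-score of 1.84, above 96.6% of pairs. The z-scores of the remaining gene starts were 0.993 for Zfp462, 0.620 for Actl7b and Actl7a, 0.822 for Ctnnal1, 0.876 for 6430704M03Rik and 0.0101 for D730040F13Rik. All gene starts thus lay at or above the mean of their distance, with standard errors of the z-scores between 0.729 and 0.875, and differences between genes were not tested.

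Of the 74 other windows, 3 had a z-score above 2 with Klf4, beside 37 of 3639 chromosome 4 windows more than 1 Mb away. They lie at chr4:54680001-54720000 in the lower gene-free stretch (z-score 2.07), chr4:56480001-56520000 in the gene desert (z-score 2.04) and chr4:56880001-56920000 in D730040F13Rik (D′ 0.583 ± 0.0898 (SE), z-score 3.06). These 3 windows were positive in 37, 38 and 40 libraries, among the least detected of the region, and D′ is scaled by the rarer window. What low detection contributed to these values was not tested.

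**Figure D4:**
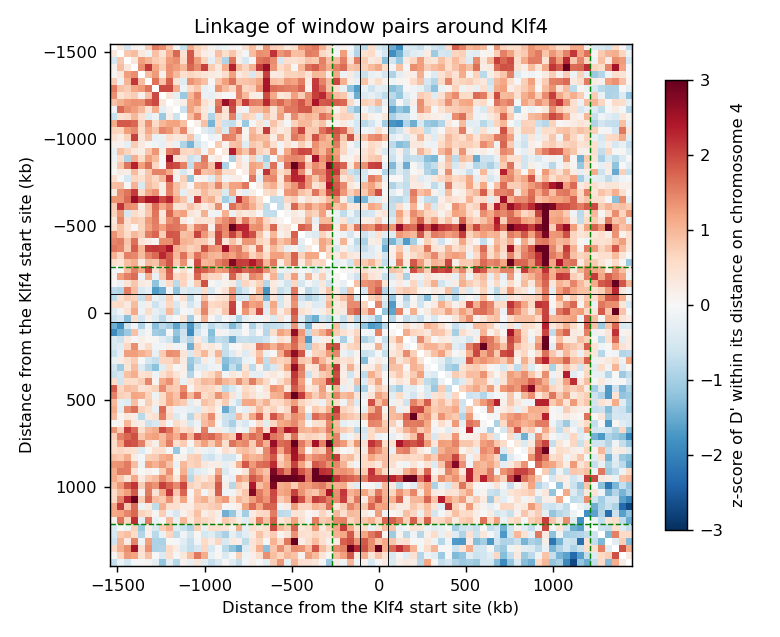
Linkage of all pairs of the 75 windows as z-scores of D′ within their distance on chromosome 4 (red above, blue below the mean), with both axes in kb from the Klf4 start site. Black lines bound the 4 Klf4 windows and green dashed lines mark the nearest domain boundaries. Blocks of lower values lie where the gene desert meets the Ikbkap cluster, and a few windows with strong values along their whole row form stripes.

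Linkage was also averaged over blocks of windows. The mean excess of D′ over the chromosome 4 mean was 0.152 ± 0.0528 (SE) between the Klf4 window and the 2 windows of Rad23b, 0.0863 ± 0.0530 (SE) between Klf4 and the 28 windows of the gene desert, and 0.102 ± 0.0570 (SE) between Klf4 and the 7 windows of the Ikbkap cluster. Zfp462 and the gene desert, on opposite sides of Klf4, had a mean excess of 0.126 ± 0.0438 (SE) over 140 pairs, 92.9% of them above the mean. An excess was also seen between the lower gene-free stretch and the windows from Zfp462 to Rad23b (0.111 ± 0.0332 (SE)), between Rad23b and the Ikbkap cluster (0.117 ± 0.0524 (SE)) and between the Zfp462-to-Rad23b windows and the gene desert (0.0901 ± 0.0364 (SE)). The gene desert and the Ikbkap cluster, which adjoin, had −0.0239 ± 0.0404 (SE), and 35.7% of 196 pairs were above the mean. The gene desert was thus more closely linked across Klf4 to Zfp462 than its distance gives on average, and not to the genes next to it, and the difference between these means was not tested.

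Insulation was measured at each window edge as the mean D′ over the pairs that span it within 400 kb on each side, where a low score marks a domain boundary. Averaged over the lower and upper edges of the Klf4 window the score was 0.454 ± 0.0391 (SE), against a chromosome 4 mean of 0.430, and lay above 69.8% of 3621 edges (z-score 0.495). No minimum was called at Klf4 itself, although one within 80 kb of its window edges appeared in 29.4% and 31.1% of the redrawn sets of libraries. The nearest boundary on the lower side lay at the edge between chr4:55240001-55280000 and chr4:55280001-55320000, at −265 kb from the Klf4 start and between Zfp462 and Rad23b. Its score of 0.439 ± 0.0356 (SE) was above 58.4% of edges, and a minimum within 80 kb returned in 71.5% of the redrawn sets of libraries. It was a local minimum between higher scores, not a low score for the chromosome. The nearest boundary on the higher side lay between chr4:56720001-56760000 and chr4:56760001-56800000, 1215 kb from Klf4 at the border of Actl7b and Actl7a with Ikbkap. Its score of 0.350 ± 0.0455 (SE) was above only 5.11% of edges (z-score −1.66), and it returned in 81.6% of them. These 2 were the only boundaries in the region, out of 147 on chromosome 4, and they enclosed 1.48 Mb that hold Rad23b, Klf4, the gene desert, Actl7b and Actl7a.

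**Figure D5:**
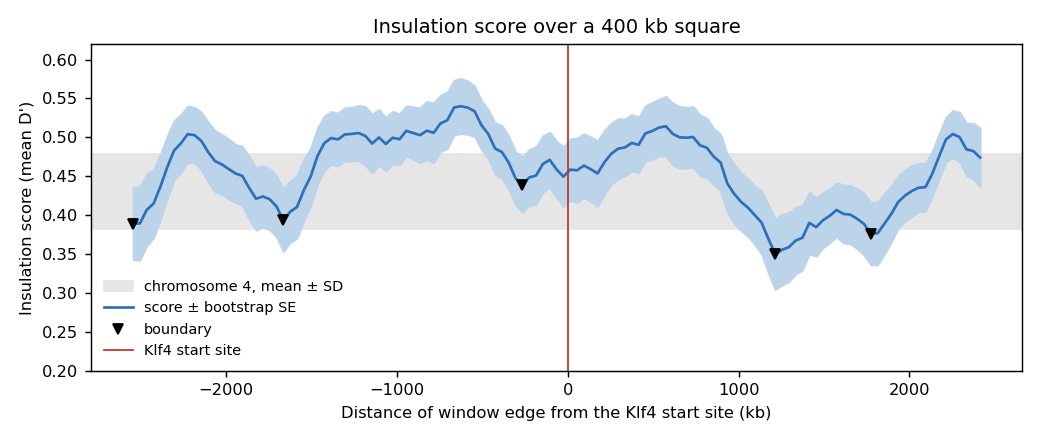
Insulation score, averaged D′ over pairs spanning an edge within 400 kb, against the distance of the window edge from the Klf4 start site in kb (blue line, with the standard error as a band). The grey band is the chromosome 4 mean ± SD and triangles are boundaries. The score averages 0.454 over both edges of the Klf4 window and falls to 0.350 at the boundary 1215 kb above it.

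Both boundaries moved under other settings. Without the 47 libraries of the highest coverage they lay at −1665 kb and 54.7 kb from the Klf4 start, and with a square of 200 kb the higher one lay 54.7 kb above, at the upper edge of the upper outer window. Without the full collection or the early freezing experiment the lower one lay at −25.3 kb, at the lower edge of its window. Leaving out the reagent volume, freezing-after-incubation or cresyl violet experiment placed the higher one 175 kb above. The CTCF core letters occurred 11 times in the 2 windows at the lower boundary and 5 times in those at the higher one. The 5 at the higher boundary are shown for comparison with those near Klf4.
chr4:56721603-56721632, plus strand: agctgatacCCAGCAGGAGGCgaacaaccc
chr4:56734543-56734572, minus strand: ctatgctggCCACAAGAGGGCgtcaggtct
chr4:56738920-56738949, minus strand: acgtgatacCCAGCAGGTGGCgccatttgt
chr4:56740434-56740463, plus strand: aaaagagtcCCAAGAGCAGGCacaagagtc
chr4:56781984-56782013, minus strand: ctgtggggcCCAGGAGAAGGCacttgaagc

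Beyond 1 Mb, the windows of chromosome 4 most like Klf4 over all libraries differed in distance and detection. The 3 highest z-scores of D′ among 3639 windows were 3.68 at chr4:67560001-67600000 (D′ 0.479 ± 0.107 (SE), 32 libraries, no protein-coding gene), 3.17 at chr4:49280001-49320000 (D′ 0.441 ± 0.0927 (SE), 39 libraries, E130309F12Rik) and 3.08 at chr4:33400001-33440000 (D′ 0.406 ± 0.0818 (SE), 66 libraries, Rngtt, the mRNA capping enzyme). In all, 37 windows were above 2 and 4 above 3, around a median of 0.0668. On other autosomes, likeness was ranked by the phi correlation, which was 0.733 between Klf4 and its enhancer window. The 3 highest of 55339 windows were 0.410 at chr12:14960001-15000000, 0.362 at chr12:14840001-14880000 and 0.346 at chr16:64040001-64080000, none with a protein-coding gene, around a median of 0.0542.

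Genes of the pluripotency network lie on other chromosomes, and their windows were set against Klf4 in the same way. For the 15 genes listed, the median D′ with Klf4 was 0.0469, below the median of 0.0608 over all windows of other autosomes, and 6 of 15 were above that median. The windows of these genes were positive in a median of 59.0 libraries, more than the autosomal median of 50. Sox2, the partner of Oct4 in binding DNA, had the highest value, 0.253 ± 0.0781 (SE), above 99.3% of windows, with 23 libraries holding both against 12.1 expected from their frequencies. It was the only gene of the list above 0.210, the upper end of the central 95% of windows. Lefty1, an inhibitor of Nodal signalling, followed at 0.184 ± 0.0800 (SE). Pou5f1 and Esrrb both had 0.0993, Nanog −0.00621 and the related factors Klf2 and Klf5 0.0519 and 0.0199. The lowest values were −0.122 for Tfcp2l1 and −0.177 for Sall4, with standard errors of 0.168 and 0.172.

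The value of Sox2 was followed over the neighbouring windows. It was 0.235, 0.249 and 0.253 with the lower outer, enhancer and Klf4 windows and 0.0374 with the upper outer window. Of the 55 libraries with the Klf4 window, 44 also held the enhancer window and 33 the upper outer window. The lower value at the upper outer window is thus not separate from the linkage of Klf4 itself. The value of Sox2 with the Klf4 window ranged from 0.216 to 0.323 when any single experiment was left out. Averaged within tertiles of library coverage it was 0.200. The 10 windows within 200 kb of the Sox2 window had values with Klf4 from 0.00966 to 0.168. Sox2 had been singled out as the highest of 15 genes, so these values are a description and no test was made.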

How the data were processed

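All libraries were analysed from 1 deposited table of positive window calls (1 or 0) for 40 kb windows. The authors aligned reads to mm9 with Bowtie2 (version 2.1 per the labels), removed duplicates with Samtools and called windows positive with GAMtools at a fixed threshold of 4 reads. The table holds no read counts, so depth is unknown and a 0 can be absence or too few reads. It holds libraries that passed the authors' quality control. All columns matched a library name in the labels, and groups follow the titles. No 2 libraries were identical (0 pairs).

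D′, z-scores and insulation used windows positive in at least 25 libraries (Python 3.11.15, numpy 2.4.6, scipy 1.17.1, pandas 2.3.3). Boundaries were insulation minima with a prominence of at least 0.5 SD. Errors came from 1000 draws of the libraries with replacement and permutation tests used 100000 resamples. Arms were compared in the freezing-after-incubation, early freezing, cresyl violet and kit experiments, where each arm held at least 10 libraries. The comparison used Fisher's exact test over windows positive in at least 3 libraries, and a stratified test. The reagent volume arms also held at least 10 libraries each and were not compared. Statistics were tested on simulated data. Named were Klf4, all protein-coding genes of the region (GENCODE vM1), 15 pluripotency genes, the most and least detected windows, boundaries and the closest matches of Klf4. The 21 chromosome lengths of the reference equal those of the table. Members, lists and tests were chosen with earlier results of these data known.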

Additional observations from a re-analysis of the deposited data

Results flagged for a closer look

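Of the 18 groups of values examined for a library far from the rest (each group of 4 to 10 libraries, for the percent of the region positive and for its difference from the rest of chromosome 4), 5 held one. Chance gives about 1 in 20 groups only for normally distributed values, these percents are skewed towards high values, the rate for such values was not tested, and both measures share libraries. In protocol-a, replicate 7 was positive in 85.3% of the region windows, and the next highest library in 20.0%. The same library exceeded the rest of chromosome 4 by 31.2 percentage points, and the next by 3.73. In 2ul-mdc-pk, replicate 6 exceeded it by 37.3 points, and the next by 0.537. Among libraries of 23 PCR cycles, replicate 1 held 61.3% of the region and the next 9.33%, and among those of 20 cycles, replicate 3 held 65.3% and the next 4.00%.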

How the results depend on the processing

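The linkage of Klf4 with its enhancer window stayed above the distance mean under all 19 alternatives, with z-scores from 1.14 to 1.83 when an experiment was left out and 0.975 with no minimum of positive libraries. The difference of the region from the rest of chromosome 4 turned to −0.586 percentage points with windows positive in at least 25 libraries (permutation p = 0.641) and to −0.761 as a difference of logits, and ran from −0.324 to 0.899 points without 1 experiment. The linkage asymmetry was 0.103 over 5 windows, and 0.211 over 1 or 2 windows, reaches at which its unadjusted p passed the threshold, 0.0122 starting 2 windows away, 0.0209 within coverage tertiles, and 0.0168 to 0.0646 without 1 experiment. The z-score of the mean linkage among the 4 windows turned to −0.352 within coverage tertiles and ran from −0.243 to 0.780 without 1 experiment. That of the insulation score at Klf4 was −0.154 with a 200 kb square and 1.35 with 800 kb, and 0.115 to 0.754 without 1 experiment. The higher boundary lay 54.7 kb from the Klf4 start without libraries of at least 25% coverage and with a 200 kb square, and 175 to 1215 kb without 1 experiment. The lower one lay at −1665 kb without those libraries, at −25.3 kb with a prominence of 0.25 SD, and at −265 to −25.3 kb without 1 experiment. The chi-square of the Klf4 window ran from 17.4 to 24.1 without 1 experiment with every unadjusted p under 0.05, but its adjusted p was above 0.05 in 4 of these 11 settings and within coverage tertiles. The other alternatives changed no direction or call at the unadjusted threshold, and the cause of each shift was not tested. No paired analysis was possible because the labels carry no replicate numbers shared between groups. The pairs among the 4 Klf4 windows rest on 31 to 44 libraries with both positive, and their D′ has a standard error from 0.0555 to 0.0750.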
